A study of Mus musculus with 3 samples.

Results

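The genes described here handle foreign compounds and oxidants. They are ABC transporters, organic ion carriers of the Slc22a and Slco families, and cytochrome P450 enzymes with their reductase. Further groups are carbonyl, quinone and aldo-keto reductases, conjugation enzymes, and peroxide and superoxide defence enzymes. The last group holds the regulators Nfe2l2 and Keap1 together with haem oxygenase (Hmox). They were chosen by gene symbol, with no measured value in the rule, and each 500 bp window was counted once per gene. The choice gave 751 windows in 158 genes, among 88429 windows that the authors' table ties to 15181 gene symbols and 143198 windows in all. Counted once over all genes, the 751 were 736 distinct windows.

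DNA methylation was measured in C57BL/6 mouse sperm taken from the cauda epididymis by MBD-seq, in which DNA fragments of about 300 bp are captured with MBD2, a protein that binds methylated CpG sites, and sequenced, here on a MiSeq. The anthracycline doxorubicin (DXR) or saline was injected into the peritoneum 2 times per week for 5 weeks, between 8 and 13 weeks of age, and sperm was taken 4 days after the last injection. The libraries were the vehicle control (saline), the low dose (DXR at 0.02 mg/kg) and the high dose (DXR at 0.2 mg/kg), all from mice labelled 14 weeks old and with no allele or transgene named, with 1 library per group. The number of mice behind each library is not known from the labels, so no difference below has a replicate check, no test was possible and every difference is one between these libraries.

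Doxorubicin is a quinone that poisons topoisomerase II. Cells pump it out through P-glycoprotein (Abcb1a and Abcb1b in the mouse) and related ABC transporters, and organic cation carriers can bring it in. Carbonyl and aldo-keto reductases turn it into an alcohol, while P450 reductase can reduce its quinone to a radical that passes electrons to oxygen, and catalase, glutathione peroxidases, peroxiredoxins and thioredoxin reductases remove the peroxides that follow. NRF2 (Nfe2l2), held in check by Keap1, switches on many of these genes through antioxidant response elements. In most tissues methylation at the promoter of such genes goes with silence, whereas methylation inside the gene body is common in active and inactive genes alike.

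Nearly all of the listed signal lay inside the genes and not at their promoters. The authors' table holds only windows whose RMS, a methylation score per window, exceeded 1 in at least 1 library, so a window low in every library was not analysed here. RefSeq promoters, from 250 bp before to 50 bp after the start (GRCm38.p6, the same build as mm10), could be matched for 121 of the 158 genes, with 147 promoters. Only 2 of the 147 (1.36%) overlapped a listed window, against 4.07% of 32851 promoters of all genes. The 158 genes all have a listed window somewhere, which all genes need not. Of 326 RefSeq genes of the same symbol pattern, listed or not, promoters could be matched for 234. Over these it was the same 2 of 271 promoters (0.738%). Both belong to hydroxylases of retinoic acid, the vitamin A derivative that starts meiosis in the testis. They are shown because they are the only ones of the 147 matched promoters with a measurement. Windows at other gene starts, such as that of Slc22a7 below, overlapped none of the matched promoters. Capitals mark CpG sites, the targets of methylation.
Cyp26b1: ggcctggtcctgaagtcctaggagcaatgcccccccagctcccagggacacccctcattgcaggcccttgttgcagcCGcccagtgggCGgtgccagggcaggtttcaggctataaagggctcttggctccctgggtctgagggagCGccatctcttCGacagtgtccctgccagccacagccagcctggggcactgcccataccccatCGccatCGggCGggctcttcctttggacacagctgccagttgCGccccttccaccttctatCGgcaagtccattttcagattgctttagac
Cyp26c1: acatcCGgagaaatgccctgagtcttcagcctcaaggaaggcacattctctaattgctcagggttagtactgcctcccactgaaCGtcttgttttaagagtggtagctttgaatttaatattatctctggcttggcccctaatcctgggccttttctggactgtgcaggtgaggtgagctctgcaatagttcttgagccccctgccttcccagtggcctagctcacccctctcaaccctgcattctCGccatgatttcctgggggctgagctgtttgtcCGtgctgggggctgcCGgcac

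The Cyp26b1 promoter (mm10 chr6:84593761-84594060, minus strand, 9 CpG sites) shared 240 bp with a window whose RMS was 1.28 in the vehicle control, 0.490 at the low and 0.353 at the high dose. This window was highest in the control, and its change of -0.87 at the high dose and -0.70 at the low dose stayed short of the 2-fold limit defined below. The Cyp26c1 promoter (mm10 chr19:37685430-37685729, plus strand, 5 CpG sites) shared 71 bp with a window with RMS 2.87 in the control, 2.27 at the low and 2.58 at the high dose. The shared stretch is the first 71 bases of its sequence above, so most of its CpG sites lie outside that window. That window was above 1 in all 3 libraries and changed by -0.12 at the high dose. The 147 promoters held a median of 6 CpG sites, against 4 for the 271 of the symbol pattern and 7 for all promoters. The core of the antioxidant response element, TGACNNNGC searched on both strands, occurred in 16 of the 147 (10.9%) and in neither of the sequences above. Its share was 10.3% over the 271 and 12.4% over all promoters.

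Windows within 1 kb of a RefSeq gene start were few, at 11 in 9 genes, and none passed the 2-fold limit at either dose as computed, though 1 was higher past it at the high dose under each of the 3 scalings described below. In Slc22a12, the kidney urate transporter, 2 neighbouring first-exon windows (chr19:6542001-6543000) had RMS 0.837 and 1.09 in the control, 1.65 and 1.98 at the low and 1.39 and 1.87 at the high dose. Both were higher in each treated library than in the control. The opposite was seen at the first exon of Slc22a7, an organic anion transporter (chr17:46438001-46438500), with RMS 1.12 in the control, 0.326 at the low and 0.379 at the high dose. The table also marks a window as exon 1 when it overlaps the first exon of any transcript. By that wider rule 46 windows in 29 genes were first-exon or upstream windows, but many lay far along the gene, such as those of Por at 61.7 and 63.7 kb of its 65.3 kb. The strongest of them by the mean over the 3 libraries lay in Abca2 (chr2:25441001-25441500), with RMS 5.53 in the control, 5.03 at the low and 6.07 at the high dose, followed by Abcc6 (chr7:45977001-45977500), with 4.38, 5.49 and 6.12 in the same order. Among the 46, 1 was lower by 2-fold at the high dose (Gpx4) and 0 at the low dose. Over all gene windows 2.83% were lower at the high dose and 1.36% at the low dose. The median change of the 46 was -0.23 at the high dose and -0.21 at the low dose.

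Over all member windows, methylation signal was lower after DXR by about as much as in other genes. The median RMS was 1.80 in the vehicle control, 1.66 at the low and 1.49 at the high dose, against 1.76, 1.61 and 1.49 in the same libraries for all gene windows. RMS exceeded 1 in 91.7% of member windows in the control, 80.3% at the low and 73.1% at the high dose. The change of a window was computed as log2 of the treated RMS plus 0.766 over the control RMS plus 0.766, and a window was counted as lower or higher when its change reached 1 in either direction, that is 2-fold with the constant included; the added constant understates changes of low windows. The median change of member windows was -0.15 at the high dose and -0.08 at the low dose, against -0.14 and -0.08 for all gene windows. Dividing each library by its median, or quantile normalization, brought the member median at the high dose to -0.01 or -0.02, so directions below are given with that shift in view.

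At the high dose 26 member windows in 23 genes were lower by 2-fold (3.46% of 751), where 2.83% of all gene windows were lower. None was higher, where 0.0859% of all gene windows were higher. At the low dose 10 windows in 8 genes were lower (1.33%), where 1.36% of all gene windows were lower, and 1 was higher, where 0.122% of all gene windows were. The member shares were thus close to those of genes at large in both comparisons. The split between lower and higher calls depends on the scaling. At the high dose it was 26 lower and 0 higher as computed. Division by library medians gave 11 and 3, and quantile normalization 2 and 3. Subtracting the median change of windows of like read density and CpG content gave 1 and 10. Over all gene windows these scalings gave 1.60% lower and 0.242% higher, 0.740% and 0.442%, and 0.328% and 0.732%, so the split shifted there too. At the low dose the same settings gave 10 lower and 1 higher, 4 and 1, 3 and 4, and 1 and 6. The 3 scalings gave 0.855% lower and 0.173% higher, 0.630% and 0.484%, and 0.236% and 0.708% over all gene windows.

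**Figure D1:**
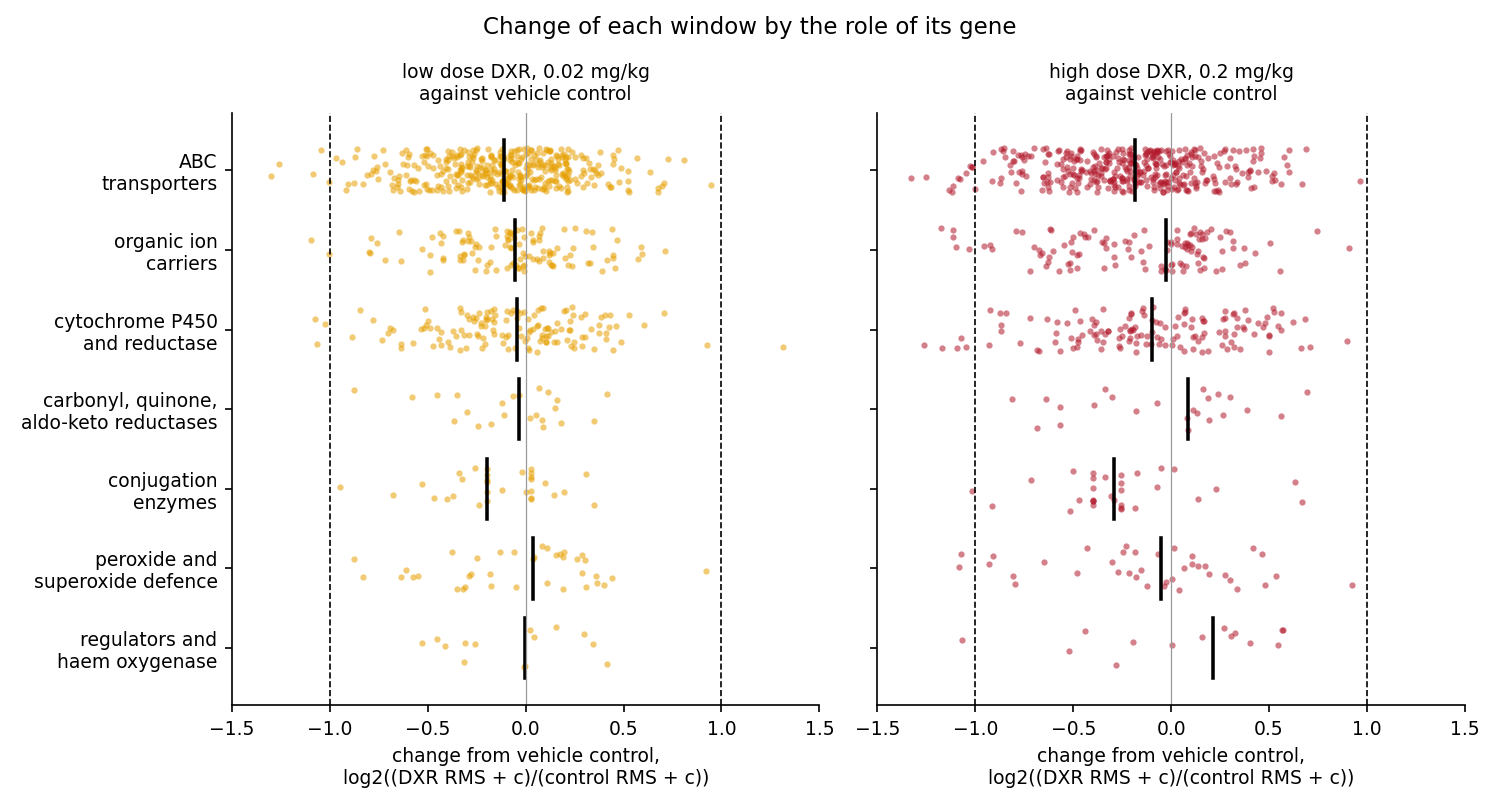
Change of each member window from the vehicle control (log2 of RMS plus a constant), by the role of its gene, at the low dose (left) and the high dose (right). Each point is 1 window, black bars are medians and dashed lines the 2-fold limit: most windows lie inside the limit, and the windows past it at the high dose are all lower.

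Grouped by role, the 45 ABC transporter genes held 388 windows, with median changes of -0.19 at the high dose and -0.11 at the low dose. Of these windows 12 were lower at the high dose (3.09%) and 5 at the low dose (1.29%). Over all gene windows the shares were 2.83% and 1.36%. The 25 organic ion carrier genes held 116 windows, with medians of -0.03 and -0.06. Of these 5 were lower at the high dose (4.31%) and 2 at the low dose (1.72%). The 116 were 113 distinct windows, and the lower window at the high dose shared by Slc22a13 and Slc22a14 was counted for both. The 47 genes of the cytochrome P450 group, the reductase Por included, held 141 windows, with medians of -0.10 and -0.04. Of these 5 were lower at the high dose (3.55%) and 3 at the low dose (2.13%). The 15 peroxide and superoxide defence genes held 38 windows, with medians of -0.05 and 0.04. Of these 2 were lower at the high dose (5.26%) and 0 at the low dose. The smaller groups were conjugation enzymes (31 windows, 1 or 3.23% lower at the high dose) and regulators with haem oxygenase (14 windows, 1 or 7.14% lower). The last was carbonyl, quinone and aldo-keto reductases (23 windows, 0 lower). The plot of changes by role shows these groups side by side. The median of the ABC transporters was below 0 at both doses under every scaling tried, while that of the carriers, the P450 group and the defence enzymes turned above 0 at the high dose under each of the 3 scalings.

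Coverage of the groups differed. Windows were listed for 45 of 50 ABC transporter genes in RefSeq, 25 of 41 carriers, 47 of 135 genes of the P450 group, and 15 of 44 conjugation genes. The superoxide dismutases Sod1 to Sod3, the carbonyl reductases Cbr1 to Cbr4, Hmox1, Gpx1, Gstp1, Prdx1 and Cyp3a11 had no window and were not analysed here. Of the defence windows 76.3% overlapped an exon, against 47.9% of all member windows and 44.6% of all gene windows. Among conjugation enzymes, 13 of the 31 windows were 2 stretches of the Ugt1a locus that its genes share, counted once for each gene, so the group's median of -0.29 at the high dose rests on 20 distinct windows, over which it was -0.28.

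The ABC transporter window with the largest fall lay in Abcc10 (ENSMUSG00000032842), which encodes MRP7, an exporter of natural-product anticancer drugs. This exonic window (chr17:46303501-46304000) had RMS 3.46 in the vehicle control, 1.44 at the low and 0.919 at the high dose. Its change was -1.33 at the high dose and -0.94 at the low dose, and it was the 1 window of the 26 that stayed past the limit with the trend in read density and CpG content subtracted (-1.01). The other 13 windows of Abcc10 showed no such fall: the median over the gene's 14 windows was -0.12 at the high dose, and its strongest window (chr17:46317501-46318000) had RMS 5.43 in the control, 5.31 at the low and 4.70 at the high dose. Abca17, a lipid transporter of the mouse testis, had an exonic window (chr17:24287501-24288000) with RMS 2.63 in the control, 1.21 at the low and 0.783 at the high dose. Its RPM, the authors' read density scaled to library size, was 4.24 in the control, the highest among the 26 lower windows.

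Sterol transporters were represented by Abcg1, which exports cholesterol, and Abcg8, which pairs with Abcg5 to export plant sterols. In Abcg1, an exon 4 window (chr17:31094501-31095000) had RMS 1.06 in the control and 0.720 at the low dose, and in the high dose library it was listed at 0. The same gene held the member window with the largest upward change at the high dose, in exon 10 (chr17:31108501-31109000), with RMS 2.17 in the control, 3.35 at the low and 4.96 at the high dose, which is a change of 0.96 that fell just short of the limit. The windows of Abcg1 thus moved in both directions, and 7 of 11 were below the control at the high dose. An intronic window of Abcg8 (chr17:84689001-84689500) had RMS 1.90 in the control, 0.653 at the low and 0.540 at the high dose. An exonic window 7 kb further on was higher after treatment, with 2.75 in the control, 3.15 at the low and 4.47 at the high dose. The other lower ABC windows at the high dose were in Abca12, which carries skin lipids, in Abca13, in Abca2, a lipid transporter of brain, in Abcc12, in Abcf2, which has ATPase domains but no membrane part, and in Abcg1 and Abcc4, with changes from -1.12 (Abca13) to -1.0 (Abca2).

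At the low dose the largest fall of an ABC transporter was in Abca4, the retinal transporter of vitamin A aldehyde. Its exonic window (chr3:122138501-122139000) had RMS 2.33 in the control, 0.492 at the low and 1.30 at the high dose. The low dose library was the lowest of the 3 here, and the change was -1.30 at the low and -0.58 at the high dose. Abca4 had 11 of 14 windows below the control at each dose and the lowest median among genes with 10 or more windows, -0.47 at the high dose and -0.27 at the low dose; it stayed below 0 under all 3 scalings, between -0.33 and -0.21 at the high dose. Abca3, the surfactant lipid transporter of lung, had an exonic window (chr17:24386001-24386500) with RMS 1.59 in the control, 0.343 at the low and 0.444 at the high dose. Windows below the control at the low dose but short of the limit were in Abcb10 (-0.97), a mitochondrial transporter, in Abcc10, Abcg8 and Abcg1, and in Abcc5 (-0.79), which exports cyclic nucleotides.

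Windows above the control at the low dose included an exonic one of Abcb9, the lysosomal peptide transporter (chr5:124080001-124080500), with RMS 2.97 in the control, 5.80 at the low and 5.26 at the high dose. Both treated libraries exceeded the control there, by 0.81 at the low and 0.69 at the high dose. The largest upward change of an ABC transporter at the low dose, 0.95, was in an exonic window of Abca4 (chr3:122137501-122138000) that begins 1 kb before the lower window above and had RMS 0.169 in the control, 1.04 at the low and 0.721 at the high dose. It passed the limit at the low dose under quantile normalization (1.11) and with the trend subtracted (1.35). Other upward windows at the low dose lay in Abcc2 (0.73), in Abcg1 (0.71), in Abcc4 (0.70), in Abcc12 (0.53) and in Abcb10 (0.52), short of the limit as computed. Abcf1, a translation factor of the ABC family, had all 6 windows below the control at both doses, with medians of -0.27 at the high dose and -0.41 at the low dose. Among the 48 genes with 5 or more windows it was the only one with every window below the control at the high dose, and the libraries share that control.

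Abcc4 (ENSMUSG00000032849) encodes MRP4, which exports cyclic nucleotides, nucleotide analogues and conjugated drugs, and it held more listed windows than any other member. Its 100 windows over 225 kb on chromosome 14 came to 44.4 per 100 kb. The median was 5.67 per 100 kb over 4381 genes of 50 kb or more with a listed window, and 3.74 over the 58 member genes of that length, of which Abcc8 came next with 33.1. Among the 4381 genes, 53 lay above Abcc4. The dense signal ended near the gene's borders, with 7 windows in the 100 kb upstream and 9 in the 100 kb downstream. The first listed window lay 8.11 kb from the start, and 27 of the 100 overlapped an exon.

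**Figure D2:**
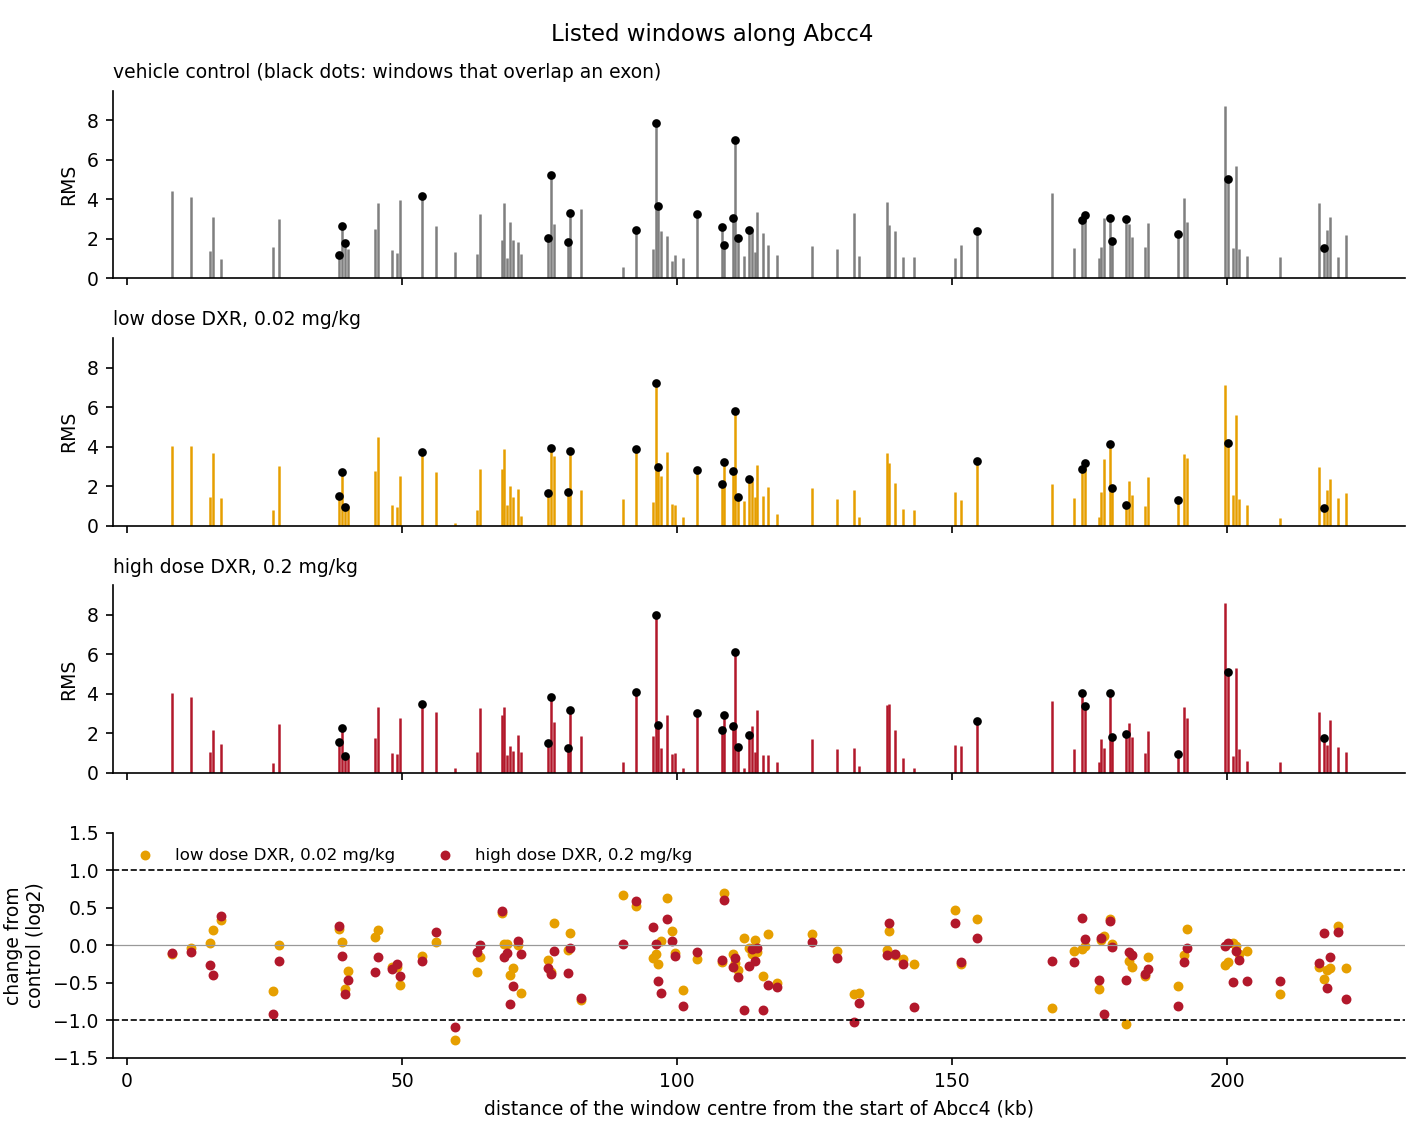
RMS of the 100 listed windows of Abcc4 against their distance from the gene start (kb) in the vehicle control, low dose and high dose libraries, with the change of each window from the control (log2) in the bottom panel and the 2-fold limit dashed. The strongest window reaches 8.73 in the control, 7.12 at the low and 8.62 at the high dose, and most changes lie between the limits.

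The strongest window of Abcc4 (chr14:118508001-118508500, intronic) had RMS 8.73 in the vehicle control, 7.12 at the low and 8.62 at the high dose. The median RMS of its windows was 2.24 in the control, 1.90 at the low and 1.79 at the high dose. At the high dose 76 of the 100 windows were below the control, where 63.8% of all gene windows were, and at the low dose 65, where 59.1% of all gene windows were, with median changes of -0.20 and -0.12; under the 3 scalings the median stayed below 0, between -0.13 and -0.04 at the high dose. At the high dose the median was -0.14 over exonic and -0.21 over intronic windows. An intronic window 59.6 kb from the start (chr14:118648001-118648500) was lower at both doses. Its RMS was 1.35 in the control, 0.116 at the low and 0.226 at the high dose. A second intronic window (chr14:118575501-118576000) had 3.30 in the control, 1.81 at the low and 1.24 at the high dose, which is a change of -1.02, and was the 1 window of the 26 that remained above an RMS of 1 in every library. An exonic window (chr14:118526001-118526500) passed the limit at the low dose but not at the high dose, with 3.0 in the control, 1.06 at the low and 1.98 at the high dose. In the opposite direction, an exonic window (chr14:118599001-118599500) had RMS 1.69 in the control, 3.21 at the low and 2.95 at the high dose.

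Among organic ion carriers, the largest fall at the high dose was in Slc22a17, which encodes the receptor for the iron-binding protein lipocalin 2. Its exon 9 window (chr14:54907001-54907500) had RMS 3.05 in the vehicle control, 1.55 at the low and 0.921 at the high dose, which is a change of -1.18 that stayed past the limit after quantile normalization (-1.05). One intronic window (chr9:119205001-119205500) is annotated to both Slc22a13, which carries nicotinate and urate, and Slc22a14, the riboflavin transporter of mouse sperm. It had RMS 1.73 in the control, 1.10 at the low and 0.390 at the high dose. It lies 14.8 kb upstream of the Slc22a14 start in RefSeq and is tied to that gene by the authors' annotation. The remaining lower carriers were Slco3a1, with an intronic window at -1.03, and Slco2a1, the prostaglandin transporter, with an exon 12 window at -1.10.

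At the low dose the carriers past the limit were Slc22a4, the ergothioneine transporter, and Slc22a15. The intronic Slc22a4 window (chr11:54016001-54016500) had RMS 1.82 in the control, 0.443 at the low and 1.06 at the high dose, and the low dose library was the lowest. The strongest window of all members lay in an intron of Slco1a6, an organic anion transporter of mouse kidney (chr6:142168001-142168500). Its RMS was 6.45 in the control, 9.14 at the low and 11.3 at the high dose, and its RPM 10.1, 14.6 and 16.8 in the same order. It stood higher with each dose, by 0.46 at the low and 0.74 at the high dose, while the other windows of Slco1a6 held its median to 0.10 at the high dose. An intronic window of Slc22a27 was also above the control at the low dose, with 1.67 in the control, 2.89 at the low and 1.72 at the high dose, and all 6 windows of that gene were above the control at the high dose, by 0.03 to 0.55.

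Slc22a16, a carnitine transporter of the testis whose human form also takes up doxorubicin, had 4 windows. Its strongest (chr10:40587001-40587500, intronic) had RMS 2.26 in the control, 2.61 at the low and 2.62 at the high dose. An exon 2 window (chr10:40573501-40574000) had 1.10 in the control, 0.437 at the low and 0.338 at the high dose, which is a change of -0.76 that missed the limit. In Slc22a3, the organic cation transporter OCT3, 5 of 7 windows were below the control at the high dose, and the median of -0.52 at the high dose and -0.31 at the low dose stayed below 0 under all 3 scalings. Its strongest window, in exon 10, hardly moved, with 4.50 in the control, 5.00 at the low and 5.02 at the high dose.

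The efflux pumps best known for doxorubicin showed no change past the limit. In Abcb1a, which encodes P-glycoprotein, all 4 listed windows lay together in an intron, 144 to 145 kb from the start; the strongest (chr5:8711001-8711500) had RMS 4.13 in the control, 3.73 at the low and 4.37 at the high dose. The largest change in its neighbour Abcb1b was an exon 14 window (chr5:8825001-8825500) with 1.04 in the control, 0.350 at the low and 0.232 at the high dose, which is a change of -0.85. Abcb4, the phosphatidylcholine exporter of bile, had all 4 windows below the control at the high dose, led by an intronic window at -0.79. Abcc1 (MRP1) had 2 windows with changes of -0.18 and -0.07 at the high dose, and Abcg2 (BCRP) had a single window with 2.07 in the control, 2.22 at the low and 1.45 at the high dose. In Abcc2, Abcc3 and Abcc6, further MRP-type exporters, the largest changes at the high dose were -0.77, 0.45 and -0.76. Over the 32 genes with windows from a list of 46 genes that handle doxorubicin or its oxidants, 6 of 147 windows in 5 genes were lower at the high dose (4.08%, against 2.83% of all gene windows), 0 were lower at the low dose (1.36% of all gene windows) and 0 were higher at either dose. The median change over this list was -0.08 at the high dose and 0.00 at the low dose.

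**Figure D3:**
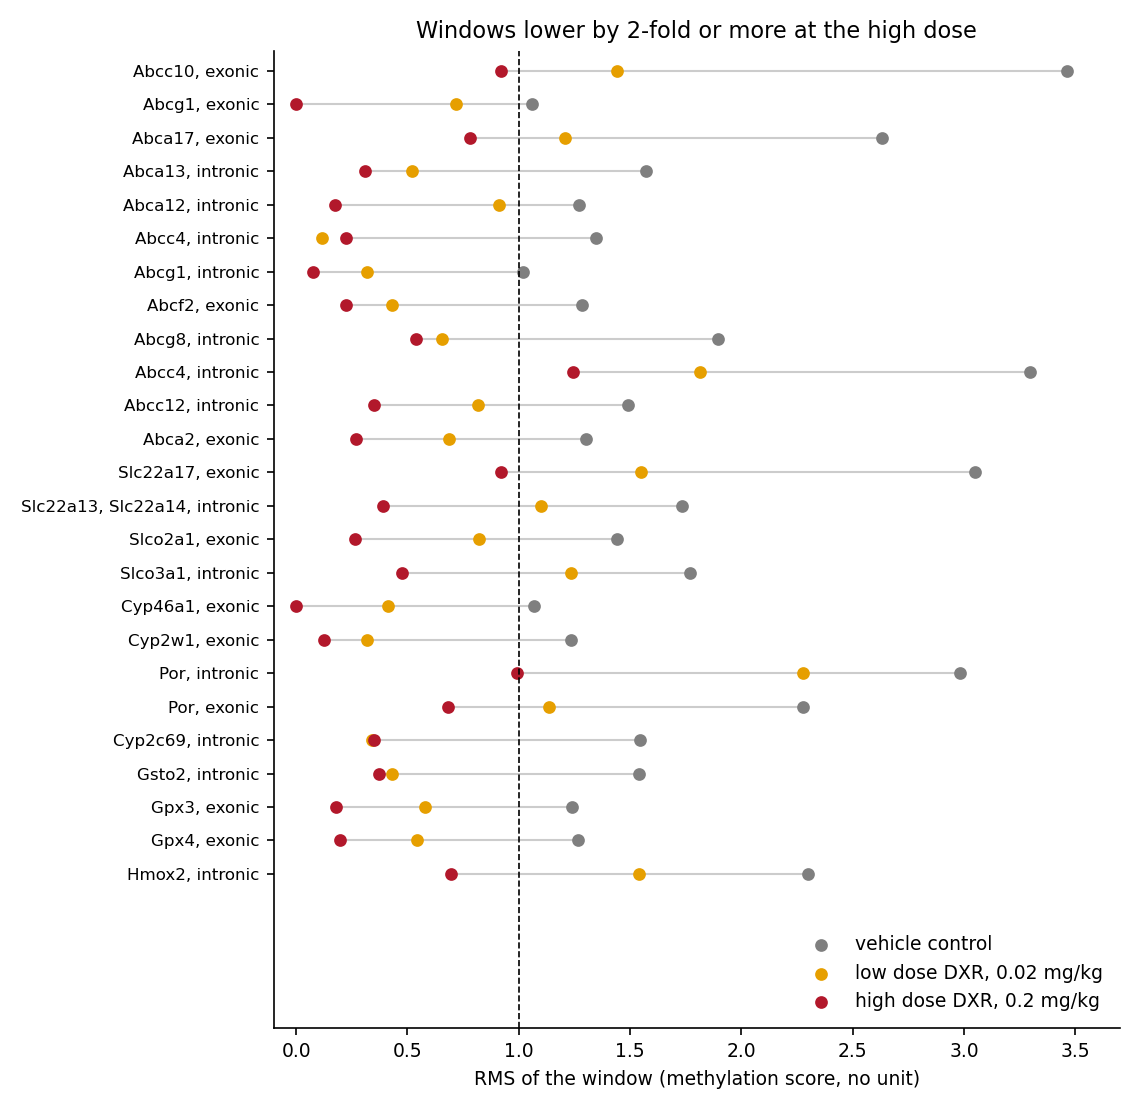
RMS of the 25 distinct windows lower by 2-fold at the high dose, in the vehicle control (grey), low dose (orange) and high dose (red) libraries, grouped by role; the dashed line marks an RMS of 1, the floor of the list. The control is the highest of the 3 libraries in every window, and the low dose lies between the others in all but 2, the Cyp2c69 window and the Abcc4 window with a control RMS of 1.35.

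Among the P450 genes and their reductase, Por held the most windows, and they moved in both directions. Por (ENSMUSG00000005514) passes electrons from NADPH to every microsomal P450. Of its 16 windows, 10 were above the control at the high dose and 11 at the low dose, and its median of 0.31 at the high dose and 0.14 at the low dose was the highest among the 15 genes with 10 or more windows at the high dose. That median stayed above 0 under all 3 scalings, between 0.32 and 0.45 at the high dose. The last 6 windows of the gene, between chr5:135731001-135731500 and chr5:135734501-135735000, were all above the control at both doses, by 0.28 to 0.67 at the high dose and by 0.06 to 0.41 at the low dose; these were singled out after their values were seen. The strongest Por window (chr5:135698501-135699000, intronic) had RMS 3.25 in the control, 3.56 at the low and 4.91 at the high dose. Against that direction, an intronic window (chr5:135683001-135683500) had 2.98 in the control, 2.28 at the low and 0.990 at the high dose, which is a change of -1.09, and an exonic window (chr5:135729501-135730000) had 2.28, 1.14 and 0.680 in the same order.

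**Figure D4:**
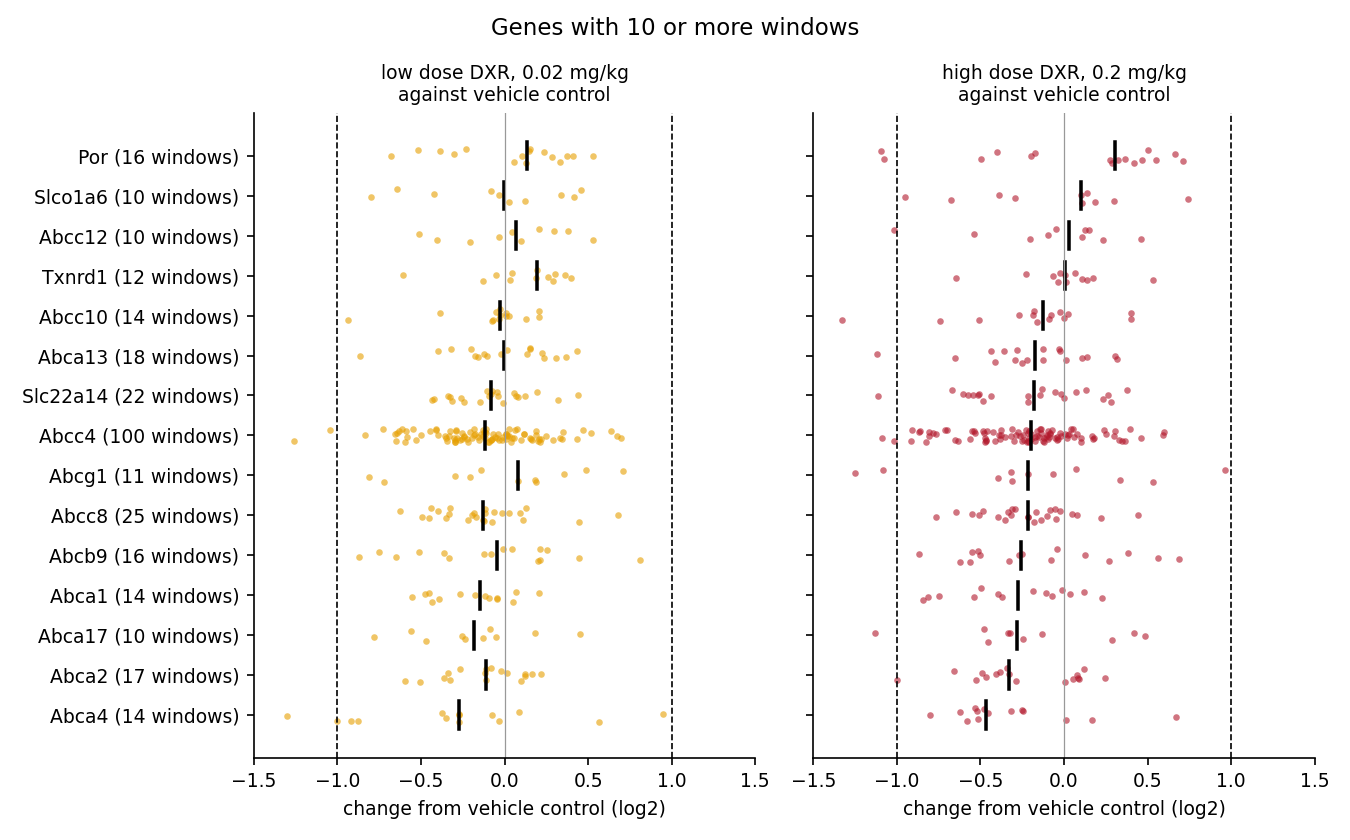
Changes from the vehicle control (log2) of all windows of the 15 genes with 10 or more windows, at the low dose (left) and the high dose (right), ordered by the median at the high dose (black bars). Por has the highest median at the high dose (0.31) and Abca4 the lowest (-0.47), and the points of every gene spread to both sides of 0.

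The other P450 windows past the limit at the high dose were low in read density. In Cyp46a1, the cholesterol hydroxylase of brain, an exon 15 window (chr12:108361501-108362000) had RMS 1.07 in the control and 0.414 at the low dose, and in the high dose library it was listed at 0. Cyp2w1 had an exon 6 window at -1.17 and Cyp2c69 an intronic window (chr19:39883501-39884000) lower at both doses, where RMS was 1.54 in the control, 0.339 at the low and 0.351 at the high dose. At the low dose Cyp19a1, the aromatase that makes oestrogens, had an exon 7 window (chr9:54171501-54172000) with 1.61 in the control, 0.358 at the low and 0.558 at the high dose, and Cyp2u1, a fatty acid hydroxylase, had a window just downstream at -1.02. The 1 member window higher by the limit at the low dose lay in an intron of Cyp4f17 (chr17:32523501-32524000), with 0.197 in the control, 1.62 at the low and 1.03 at the high dose, which are changes of 1.31 and 0.90. It passed the limit at the low dose under all 3 scalings too. Another exonic window of Cyp46a1 (chr12:108353001-108353500) had RMS 0.333 in the control, 1.32 at the low and 0.923 at the high dose, and its change of 0.93 at the low dose passed the limit under quantile normalization (1.15) and with the trend subtracted (1.11). Other upward changes short of the limit were found in an exon 7 window of Cyp2d26 at the high dose (0.69) and in the pseudogene Cyp21a2-ps at the low dose (0.70), which is nearly identical to Cyp21a1, so reads of the pair may not be separable. In Cyp2d22, the mouse relative of a human drug-metabolizing P450, an exonic window (chr15:82373501-82374000) had 1.39 in the control, 1.98 at the low and 2.28 at the high dose. The strongest P450 window, in an intron of Cyp2c54, had RMS 6.54 in the control, 7.61 at the low and 6.89 at the high dose.

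Of the reductases of carbonyl groups and quinones, Akr7a5, which reduces aflatoxin aldehydes, had 5 of 6 windows below the control at the high dose and 6 of 6 at the low dose, with medians of -0.57 and -0.40. Its exonic window chr4:139317001-139317500 had RMS 2.10 in the control, 0.795 at the low and 1.17 at the high dose. In contrast Akr1c14, a hydroxysteroid dehydrogenase, had 6 of 6 windows above the control at the high dose and 5 of 6 at the low dose, with a high dose range of only 0.13 to 0.39. Both medians kept their sign at the high dose under all 3 scalings. Akr1c6, another hydroxysteroid dehydrogenase, had a single intronic window with 2.13 in the control, 2.93 at the low and 3.92 at the high dose. Nqo1, the quinone reductase induced by NRF2, had an exon 3 window with 2.01 in the control, 2.05 at the low and 1.69 at the high dose. The strongest of 3 windows in the aldose reductase Akr1b3, intronic, had 2.86 in the control, 3.26 at the low and 1.56 at the high dose, and the single window of Akr1b8 changed by 0.08 at the high dose and -0.07 at the low dose. Among conjugation enzymes, Gsto2, an omega-class glutathione transferase, had the group's lower window, in an intron, with 1.54 in the control, 0.429 at the low and 0.373 at the high dose. The highest conjugation window, in an intron of Ugt3a2, had 2.87 in the control, 1.98 at the low and 1.78 at the high dose.

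Among peroxide defence genes, Gpx4 and Gpx3 each held 1 window past the limit at the high dose. Gpx4 encodes the phospholipid hydroperoxide peroxidase that forms the capsule of the sperm midpiece, and its exonic window (chr10:80056001-80056500) had RMS 1.27 in the control, 0.542 at the low and 0.199 at the high dose. Gpx3, the secreted peroxidase, had an exonic window (chr11:54909001-54909500) with 1.24 in the control, 0.580 at the low and 0.181 at the high dose. In both the low dose lay between the other libraries, and both fell out of the limit under the 3 scalings. A second Gpx4 window, intronic, had 1.62 in the control, 2.15 at the low and 1.81 at the high dose. The 1 window of Gpx5, a peroxidase secreted by the epididymis, changed by -0.43 at the high dose and -0.25 at the low dose.

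Catalase (Cat) had 6 windows that moved both ways. An intronic one (chr2:103463501-103464000) had RMS 2.01 in the control, 0.748 at the low and 0.689 at the high dose, which are changes of -0.93 at the high dose and -0.88 at the low dose, just outside the limit. Its strongest window, exonic (chr2:103454501-103455000), had 3.42 in the control, 3.67 at the low and 4.52 at the high dose. Txnrd3, the thioredoxin and glutathione reductase of the testis, had the largest upward change of the group in an exonic window (chr6:89674501-89675000), with 0.756 in the control, 2.11 at the low and 2.13 at the high dose. Its changes of 0.93 at the high dose and 0.92 at the low dose were short of the limit but passed it at the high dose under each of the 3 scalings (1.04 to 1.19). The cytosolic reductase gene Txnrd1 had 7 of 12 windows above the control at the high dose and 9 at the low dose, and its strongest window, in exon 9, had 5.41 in the control, 5.57 at the low and 6.04 at the high dose. Txnrd2, the mitochondrial form, had no window past -0.27 at the high dose. Of the peroxiredoxins, Prdx6 had 1 exonic window with 5.10 in the control, 3.75 at the low and 4.18 at the high dose, Prdx5 had one with 1.24, 0.851 and 2.03 in the same order, and the single windows of Prdx2 and Prdx3 changed by -0.21 and 0.19 at the high dose.

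The regulators were covered by 3 windows each in Nfe2l2 and Keap1. Hmox2, which encodes the constitutive haem oxygenase, had 8. The strongest Nfe2l2 window, in exon 5 (chr2:75676501-75677000), had RMS 1.84 in the control, 2.14 at the low and 2.68 at the high dose, while an intronic one had 2.21, 1.41 and 1.43 in the same order. In Keap1, 2 of 3 windows were above the control at both doses, led at the high dose by an exonic window (chr9:21231001-21231500) with 0.739 in the control, 1.15 at the low and 1.46 at the high dose. None of these 6 windows of Nfe2l2 and Keap1 passed the limit. In Hmox2 an intronic window (chr16:4745001-4745500) was lower, with 2.30 in the control, 1.54 at the low and 0.696 at the high dose. A few kb further on, 4 neighbouring intronic windows were all above the control at the high dose, by 0.27 to 0.57, and 2 of them at the low dose. The strongest of these (chr16:4749001-4749500) had 6.90 in the control, 6.85 at the low and 8.48 at the high dose.

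The 26 windows lower at the high dose were chosen for a control value above the high dose value, and the features that follow are a description of them, not support for the change. All 26 were also below the control at the low dose, where the same control library is used, and in 24 the low dose RMS lay between the other libraries. Of the 26, 12 overlapped an exon and 14 were intronic. In 16 of them only the control exceeded an RMS of 1, in 9 the control and the low dose did, and in 1 all 3 libraries did. Their control RPM ran from 0.706 to 4.24 with a median of 1.32, against 2.40 for all member windows. Split by mean RPM over the libraries, all gene windows were divided into 3 equal classes, and 21 of the 26 fell in the lowest class (8.97% of member windows there, against 7.05% of all gene windows), 5 in the middle class (1.95% against 1.34%) and 0 in the highest class (0.0984% of all gene windows). Read density thus moved with the calls, and its part in them was not tested. Just inside the limit lay Abcc4 (-1.02), Abcc12 (-1.01) and Abca2 (-1.0), and just outside Abca3 (-0.96), Slco1a6 (-0.95) and Cat (-0.93). For the 489 member windows whose RMS exceeded 1 in every library, the median change was -0.03 at the high dose, with 1 window (0.204%) lower there. Over the 56280 gene windows above 1 in every library the median was -0.04, and 0.362% were lower.

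**Figure D5:**
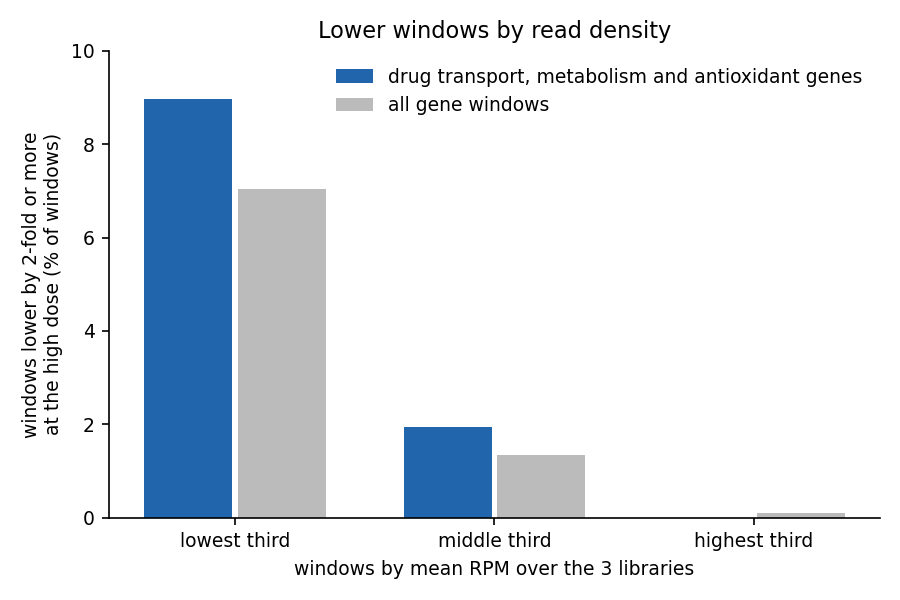
Share of windows lower by 2-fold at the high dose (%), in 3 equal classes of mean RPM over the 3 libraries, for the drug transport, metabolism and antioxidant genes (blue) and for all gene windows (grey). The share is 8.97% and 7.05% in the lowest class, 1.95% and 1.34% in the middle class, and 0% and 0.0984% in the highest class.

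The same window was lower at both doses in 2 genes, Abcc4 and Cyp2c69. This is 7.69% of the 26 windows lower at the high dose and 20% of the 10 lower at the low dose. Both calls use the same control library, and the matching overlap over all gene windows is not given here. Whether the overlap is usual for genes at large is therefore not known. No gene had a window higher at both doses, and no window past the limit at one dose had a change of the opposite sign at the other. Between the doses, 3 member windows were lower at the high dose than at the low dose (0.399%, where 0.347% of all gene windows were) and none was higher (0.026% of all gene windows). They lay in Abcg1, Abca9 and Abcc4. The Abca9 window, in exon 27, had RMS 1.54 in the control, 2.32 at the low and 0.725 at the high dose. The median change of member windows between the high and the low dose was -0.06, against -0.05 for all gene windows.

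Each gene's length was also divided into 3 equal stretches. At the high dose the median change was -0.22 in the stretch nearest the start (163 windows), -0.13 in the middle (251) and -0.10 in the last (294), with 8, 8 and 9 lower windows, or 4.91%, 3.19% and 3.06% (2.83% of all gene windows). Without Abcc4 these medians were -0.24, -0.08 and -0.09. The median control RMS was 1.60 in the stretch nearest the start, 1.84 in the middle and 1.94 in the last. At the high dose the median was -0.10 over exonic and -0.18 over intronic member windows, against -0.11 and -0.17 for all gene windows. By family, the Abca genes had a median of -0.24 at the high dose (109 windows), the Abcc genes -0.17 (189), the Abcb genes -0.08 (51), the Slc22a genes -0.02 (80), the Slco genes -0.10 (36) and the Cyp2 genes -0.06 (63). Only the Abca and Abcc medians among these stayed below 0 under all 3 scalings.

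A list of 70 further genes covered glutathione and thioredoxin supply, NRF2 partners, xenobiotic receptors, other drug enzymes and carriers, and sources of oxidants and iron. Of these, 53 genes held 271 windows, of which 0 were higher at either dose, 8 were lower at the high dose (2.95%, against 2.83% of all gene windows) and 5 at the low dose (1.85%, against 1.36%), with medians of -0.17 and -0.08. These shares were near those of genes at large. The lower windows at the high dose were in Bach1 and Bach2, repressors that compete with NRF2, in Me1, which supplies NADPH, in the aldehyde and xenobiotic oxidases Aldh1a1 and Aox1, and in Ncf1 and Nos1, which make superoxide and nitric oxide. Bach1 had an intronic window (chr16:87716001-87716500) with RMS 2.67 in the control, 1.46 at the low and 0.848 at the high dose, and 2 of the 8 were in Bach2. Me1 had an intronic window (chr9:86625001-86625500) lower at both doses, with 1.81 in the control, 0.373 at the low and 0.483 at the high dose. Loci methylated on the paternal copy carried signal in each library. The highest RMS in H19 was 5.58 in the control, 5.94 at the low and 5.65 at the high dose. The lowest of these maxima in Meg3 and Rasgrf1 was 2.85, in Meg3 at the low dose. Only windows above an RMS of 1 in some library are listed, so these values cannot identify the tissue.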

How the data were processed

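MBD-seq of mouse cauda sperm was deposited as 1 table of 500 bp windows for 3 libraries, on mm10 per the submitters' processing notes. Per the file headers, each window carries RPM, a read density scaled to library size, and RMS and AMS, which are methylation scores. The authors also deposited a ratio column based on the low dose RMS, which was not used. Genes come from Ensembl transcripts with a reach of 500 bp beyond their ends, per the file headers. The aligner and scoring program were not given in the sources used here. In all, the 143198 windows, on 297037 lines, reach an RMS above 1 somewhere among the libraries, which makes the list a filtered one. RPM values were whole multiples of a step per library, but no header ties a step to a read, so read depth is unknown and no counting interval is given.

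Each window was used once per gene. The change was log2((RMS + 0.766)/(RMS + 0.766)), where 0.766 is the 10th percentile of RMS values above 0, and the limit was 2-fold. With 1 library per group no test was run. Genes were grouped by symbol, and those named were chosen as the 10 genes with the largest change in each direction and dose (1 window per gene, with an RMS of at least 1.68, the median of values above 0, in either library), genes with 10 or more windows, windows past the limit between doses, the strongest window per role, the strongest and most changed window of each doxorubicin-handling gene, and the strongest first-exon windows. Members and lists were chosen with earlier results of these data known. Other windows in the text, such as the upward ones of Abca4 (0.95) and Cyp46a1 (0.93) at the low dose, fall outside this rule and were chosen after their values were seen. Alternatives were the constant divided or multiplied by 3, quantile normalization, division by library medians, subtraction of the median change in 20 RPM by 5 CpG-content bins (RMS/AMS as a stand-in for CpG content), RPM in place of RMS, windows above 1 in all 3 libraries, a 1.5-fold limit, and each window once. Promoter sequences are from RefSeq (GRCm38.p6). Python 3.11.15, numpy 2.4.6, pandas 2.3.3 and matplotlib 3.10.9 were used. The change, its limit and quantile normalization were tried on simulated data, with large changes set only in windows of high RMS. Windows of low RMS and the other steps were not covered by that trial. Results for 1 member gene are not reported here.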

Additional observations from a re-analysis of the deposited data

Results flagged for a closer look

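In 3 windows the treated libraries lay on opposite sides of the vehicle control and differed from each other by more than 2-fold; with 1 library per dose the difference was not tested. In exon 6 of the cholesterol exporter Abcg1 (chr17:31104001-31104500) the high dose was lower than the low dose by a change of -1.10, with RMS 0.452 in the control, 1.22 at the low and 0.161 at the high dose. In exon 27 of the lipid transporter Abca9 (chr11:110118001-110118500) the change was -1.05. In an intron of Abcc4 (chr14:118530001-118530500) it was -1.03, with RMS 3.04 in the control, 3.37 at the low and 1.25 at the high dose. The Abcc4 window was above 1 in all 3 libraries.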

How the results depend on the processing

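No paired analysis was possible because each group had 1 library. The count of lower windows at the high dose, 26, was 72 with the constant divided by 3, 0 with it multiplied by 3, 2 with quantile normalization, 11 with libraries divided by their medians, 1 with the trend subtracted, 1 among windows above 1 in all 3 libraries and 108 at 1.5-fold. The share lower over all gene windows, 2.83%, was 9.49% and 0.0136% with those constants. It was 0.740% (quantile), 1.60% (medians), 0.328% (trend), 0.362% (above 1 in all) and 15.3% (1.5-fold). The 0 higher windows at the high dose became 6, 3 (quantile), 3 (medians), 10 (trend), 1 (RPM) and 17 (1.5-fold), the first with the constant divided by 3. The all-gene share higher, 0.0859%, became 0.555%, 0.442%, 0.242%, 0.732%, 0.0871% and 1.96% in the same order. At the low dose the 10 lower windows became 39, 0, 3, 4 and 1 under the first 5 settings, 4 with RPM, 1 above 1 in all libraries and 69 at 1.5-fold. The all-gene share lower, 1.36%, became 5.41%, 0.00339%, 0.630%, 0.855%, 0.236%, 0.931%, 0.160% and 9.73% in the same order. The 1 higher window became 6, 0, 4 (quantile), 6 (trend), 2 (RPM), 0 (above 1 in all) and 16. Between the doses the 3 lower windows became 17, 0, 0 (quantile), 0 (trend), 1 (above 1 in all) and 34, and the 0 higher became 4 and 13 at the smaller constant and 1.5-fold. The all-gene share lower, 0.347%, became 2.66%, 0.00226%, 0.0995%, 0.146%, 0.0355% and 4.83%, and the share higher, 0.026%, became 0.459% and 1.17%. Genes with a window lower at both doses, 2, became 21, 0, 0, 0 and 0 under the first 5, 1 with RPM, 0 above 1 in all and 34 at 1.5-fold. Genes with a window higher at both, 0, became 4, 2 (quantile), 3 (trend) and 6. No matching counts over all genes are given for these. The member median at the high dose, -0.15, moved to -0.0203 (quantile), -0.0101 (medians), -0.0169 (trend) and -0.0308 (above 1 in all). The median between doses, -0.06, reversed to 0.0064, 0.0094 and 0.0038 under the 3 scalings. Named windows past the limit at the high dose, 10, became 12, 0, 3, 6, 3 and 4 (RPM), and at the low dose, 3, became 10, 0, 3, 2, 1 and 2. The windows of the 10 genes with the largest change in each direction at each dose kept their direction in the 6 other settings run on them. Dividing or multiplying the constant cannot change a direction, and these windows were chosen for large changes in the same data. Their kept direction is therefore a description, not support for the changes. The other named windows were not followed in this way. The cause of these shifts was not tested. Read depth is unknown, and most lower windows had little read density, so small RMS differences there cannot be separated from sampling.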
